A study of Mus musculus with 98 samples.

Results

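The 10 libraries described here hold dorsal hippocampus RNA of male PS19 mice, collected 6 months after they were injected with a virus, and were identified among the 98 libraries of the series by their sample titles. In 5 mice the PhP.eB virus carried an Acss2 expression construct (upACSS2), and in the other 5 the PhP.eB virus was the empty vector. All 10 mice were injected at 2.5 months of age with 1.5e10 viral genomes, were 8.5 to 9 months old at collection, and were killed 30 min after a test of contextual memory recall that followed training by 24 hours. Both groups carry the PS19 transgene, a mutant human tau driven by the mouse Prnp promoter, so the comparison is between 2 groups that both model tauopathy, and no mouse without the transgene and no uninjected mouse is in it. The labels give the route of injection for other mice of the series and not for the PS19 mice. Another 10 mice labelled PS19, 5 with upACSS2 and 5 with vector, were collected 1 month after injection. They share 1 estimate of the spread with the 6-month mice in every fit below, unless the 10 libraries alone are named, and they serve to ask where the 6-month comparison differed. At 1 month the labelled tissue was the whole hippocampus for upACSS2 and the dorsal hippocampus for vector, so virus and dissection cannot be told apart there.

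ACSS2, acetyl-CoA synthetase 2, joins acetate to coenzyme A in the cytosol and the nucleus. In neurons it is known to feed acetyl-CoA to histone acetylation at genes used in memory formation, and the question of the comparison is which hippocampal transcripts differ when more of it is supplied by a virus during tau pathology. The PS19 mouse builds up phosphorylated tau in the hippocampus and cortex with age, together with activation of microglia and astrocytes, interferon-response and complement transcripts, and later loss of neurons. PhP.eB is an adeno-associated virus capsid made to reach the brain from the blood.

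The 10 libraries held 9368193 to 33259982 counts each, and 15850 of the 55367 genes in the table were tested after low counts were removed. Levels are given as CPM, counts scaled to a common library size, with the SD over n = 5 mice in each group, and fold changes are upACSS2 minus vector on the log2 scale with their standard error (SE). All 10 listed markers each of dentate granule cells, of CA1 and of CA3 or CA2 pyramidal cells passed the count filter. So did all listed markers of thalamus (12), cortex (11), striatum (10) and choroid plexus (12), so passing it does not identify the tissue. The mean levels per mouse of the dentate, CA1 and CA3 or CA2 markers were 4.65 to 5.80, 5.71 to 7.04 and 4.68 to 6.05 log2 CPM. Of the 10 libraries, 3 were set apart after the data were seen, on the values that follow. The upACSS2 mouse 3 had 7.62% of its counts from mitochondrial genes, against 3.48% to 4.8% in the other 9. The vector mouse 3 lay farthest out on the first principal component (score 36.6, a component with 30% of the variance of 2000 genes). It had the highest cortical neuron marker level (5.13 log2 CPM against 3.82 to 4.36 in the other 9). The vector mouse 4 had the highest level of thalamic neuron markers (5.33 log2 CPM against 2.59 to 3.52 in the other 9). Other mice also lay far out: on the first component the upACSS2 mice 1 and 5 scored -31.4 and -24.9, and on the second the vector mouse 1 scored -26.3. They were kept. The 3 mice that stood apart are, below, the upACSS2 mouse 3 and the vector mice 3 and 4 only. List medians without these 3 or with 1 mouse left out are given below where they changed sign or moved by more than 1.5 times.

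Acss2 itself (chromosome 2, 155517948 to 155585724, plus strand in mm10) was checked first, since the virus carries it. The 5 upACSS2 mice had 237, 100.5, 44.95, 55.4 and 111 CPM of Acss2, and the 5 vector mice had 46.5, 55.97, 43.1, 44.9 and 50.4 CPM. In 3 of the 5 upACSS2 mice, numbers 1, 2 and 5, Acss2 was above every vector mouse, whereas mice 3 and 4 lay within the vector range, so the groups overlapped. The means were 109.7 ± 76.45 against 48.2 ± 5.11 CPM (SD, n = 5 each). The log2 fold change was 1.19 ± 0.595 (SE), with an adjusted p of 0.373 in edgeR's quasi-likelihood test and 0.336 in DESeq2. An exact two-sided permutation test of the log2 values over all 252 splits of 5 against 5 mice gave p = 0.0635, where the smallest possible value is 0.00794. Without the upACSS2 mouse 1 the log2 fold change was 0.69, and without the 3 mice that stood apart it was 1.299. With the choroid plexus marker level of each library as a covariate it was 0.09. That fit also takes in the 1-month mice, whose Acss2 ran up to 1465 CPM with upACSS2. At 6 months the marker level was above all vector mice in 4 of the 5 upACSS2 mice, so it largely followed virus. The value of 0.09 therefore cannot separate virus from choroid plexus RNA, whose part in Acss2 was not tested. At 1 month the 5 upACSS2 mice had 146, 1190, 318, 60.1 and 1465 CPM and the vector mice 66.3, 51.5, 52.8, 51.65 and 53.1 CPM. The log2 difference between the effects, 6 months minus 1 month, was -2.34 (edgeR unadjusted p = 0.0115, adjusted p = 0.361). The counts do not separate viral from endogenous Acss2 transcripts.

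The mouse prion gene Prnp, whose promoter drives the transgene, had 1762, 1986, 1620, 2012 and 2099 CPM in the upACSS2 mice and 1986, 2128, 1662, 1704 and 1963 CPM in the vector mice. The groups overlapped, the means were 1896 ± 198 against 1889 ± 199 CPM, and the log2 fold change was 0.005 ± 0.16 (edgeR adjusted p = 0.991). In the series' 10-month and aged vector mice, which were counted in tables normalized separately, Prnp was at 891 ± 75.1 and 896.1 ± 49.7 CPM (SD). At 1 month Prnp was at 1616, 1965, 935.6, 2058 and 2100 CPM with upACSS2 and 2119, 1722, 1964, 2096 and 1752 CPM with vector. Whether the 1-month upACSS2 mouse 3, at 935.6 CPM, carried the transgene was not tested, and it was kept in the fits. The 1-month fold changes and medians given here include this mouse and were not refitted without it. Without it the difference between the times had 0 edgeR calls and 2089 genes at an unadjusted p under 0.05. Mouse Mapt, which encodes endogenous tau, was at 479.8 ± 71.1 against 511 ± 41.6 CPM (log2 fold change -0.091 ± 0.10, edgeR adjusted p = 0.694).

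**Figure D1:**
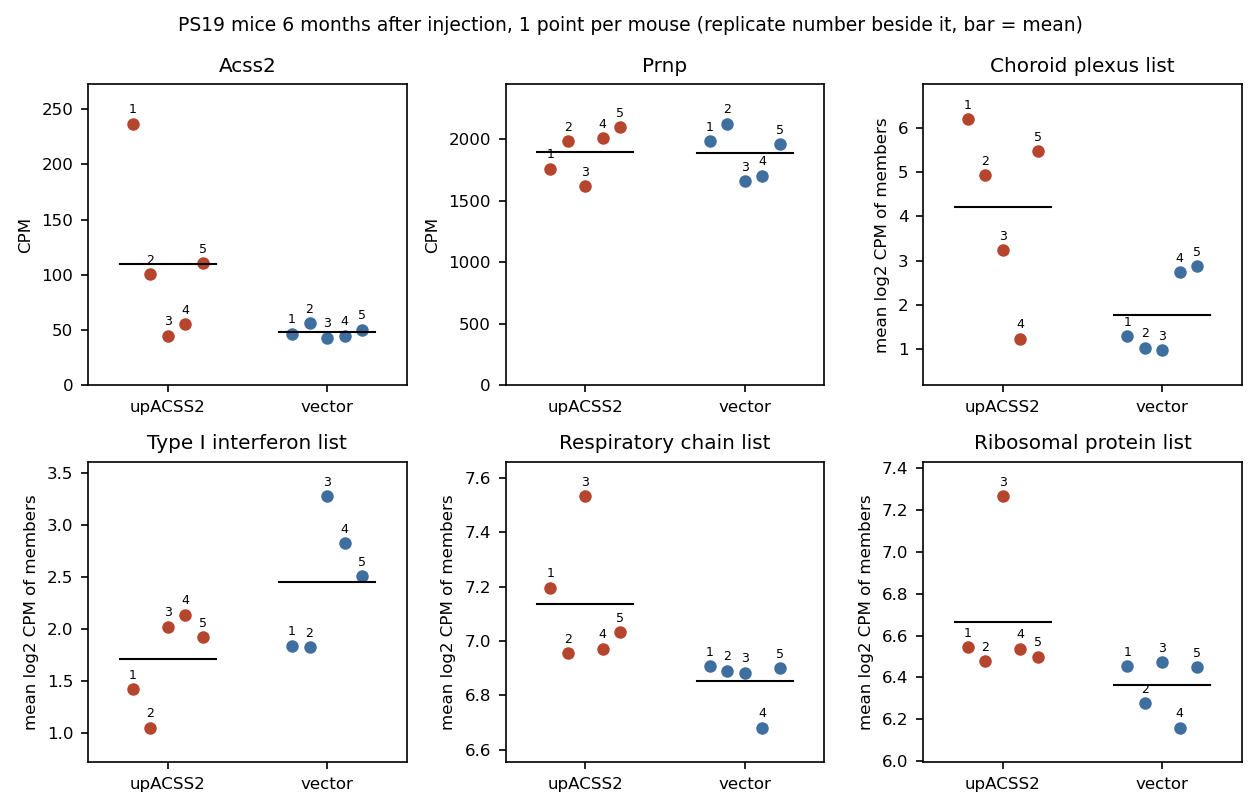
Levels in each of the 10 PS19 mice at 6 months, as CPM for single genes and as mean log2 CPM of the members for gene lists, with upACSS2 and vector side by side, 1 point per mouse with its replicate number and a bar at the mean. Acss2 exceeds the vector range in upACSS2 mice 1, 2 and 5, and the choroid plexus markers exceed it in upACSS2 mice 1, 2, 3 and 5.

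Across all genes, 0 of 15850 passed an adjusted p of 0.05 in edgeR at 6 months (0% of genes tested), and the lowest adjusted p was 0.147. At an unadjusted p of 0.05, 1216 genes were higher with upACSS2 (7.67%) and 1021 were lower (6.44%). The 5 upACSS2 mice lay above all 5 vector mice in 207 genes (1.31%) and below all of them in 189 genes (1.19%). Counts of list members below are to be read against these shares. DESeq2 on the same 20 libraries called 85 genes higher (0.57% of the 14901 genes to which it gave an adjusted p) and 54 lower (0.362%). On the 10 libraries of 6 months alone it called 28 higher and 45 lower, of which 25 in each direction were also called on the 20 libraries. On those 10 libraries edgeR called 0 and had 1650 genes at an unadjusted p under 0.05. Limma with voom and sample quality weights called 0 and had 1517 genes at an unadjusted p under 0.05. Of the 139 DESeq2 calls, 69 had no overlap between the groups, 32 of them higher and 37 lower. Leaving out 1 mouse at a time gave 0 edgeR calls except without the upACSS2 mouse 4, where 62 genes were called higher and 16 lower, and without the upACSS2 mouse 5, where 1 gene was called lower. Genes said below to have risen or fallen are DESeq2 calls on the 20 libraries, and all other values are given without a call. Among those named below, C1galt1c1, Ap1s2, Msx1, Zmym6, Ttc39b, Ascc2, Rps26-ps1, Slc20a1, Prlr and Clic6 were not called on the 10 libraries alone (DESeq2 adjusted p of 0.0526 to 0.19).

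The 11 genes described here from the 12 of lowest edgeR p among those higher with upACSS2 all shared an adjusted p of 0.147 in edgeR and all rose by DESeq2. Both tests used the same 20 libraries, so for genes picked by p the DESeq2 calls and the lack of overlap are not separate support. Rsph9, a radial spoke protein of motile cilia, was at 15.7, 12.1, 15.4, 11.04 and 12.9 CPM with upACSS2 and 8.54, 9.27, 6.63, 9.14 and 7.88 CPM with vector. All 5 upACSS2 mice lay above all 5 vector mice, and Rsph9 rose by DESeq2 (log2 fold change 0.695 ± 0.12 in edgeR, DESeq2 adjusted p = 0.000745). Itm2a, a membrane protein abundant in brain vessels, was at 26.7, 30.2, 31.9, 25.4 and 28.5 CPM against 19.85, 21.4, 22.1, 19.35 and 18.7 CPM. Its groups did not overlap either (log2 fold change 0.49 ± 0.10, DESeq2 adjusted p = 0.00801). Slc16a4, a monocarboxylate transporter family member, was at 5.42, 2.84, 2.6, 1.696 and 3.65 CPM against 1.38, 1.46, 1.37, 1.68 and 1.14 CPM. The groups did not overlap (log2 fold change 1.21 ± 0.26, DESeq2 adjusted p = 0.0146).

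Several of the others are known from the choroid plexus, the secretory epithelium of the ventricles, or from the meninges. Igfbp2, an insulin-like growth factor binding protein, was at 81.1, 47.95, 21.7, 16.6 and 66.01 CPM with upACSS2 and 13.7, 16.9, 13.4, 16.5 and 20.7 CPM with vector. Only the upACSS2 mouse 4 lay within the vector range, and Igfbp2 rose by DESeq2 (log2 fold change 1.52 ± 0.33, DESeq2 adjusted p = 0.00702). The same 4 mice, numbers 1, 2, 3 and 5, were above all vector mice for the next 3 genes. The glucose transporter Slc2a12 was at 14.9 ± 12.05 against 4.11 ± 1.11 CPM (log2 fold change 1.86 ± 0.41). The homeobox factor Msx1 was at 12.4 ± 7.45 against 4.51 ± 0.919 CPM (1.46 ± 0.33), and the lipopolysaccharide-binding protein Lbp at 10.9 ± 7.61 against 2.805 ± 1.02 CPM (1.945 ± 0.44). With the choroid plexus marker level as a covariate, the log2 fold changes of Igfbp2, Slc2a12, Lbp, Msx1 and Slc16a4 were 0.47, 0.41, 0.44, 0.51 and 0.55, whereas those of Rsph9 and Itm2a were 0.575 and 0.48. This covariate was itself above all vector mice in 4 upACSS2 mice, so it cannot separate choroid plexus RNA from the virus. The part of choroid plexus RNA in these results was not otherwise tested.

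The remaining genes of lowest p among the higher ones are widely expressed. Hprt, the purine salvage enzyme, was at 149, 135, 168, 129.8 and 132.5 CPM with upACSS2 and 116, 121, 100.1, 113 and 109.7 CPM with vector. The groups did not overlap (log2 fold change 0.35 ± 0.078, DESeq2 adjusted p = 0.00965). C1galt1c1, the chaperone of a glycosyltransferase of O-glycan synthesis, was at 31.7 ± 6.02 against 22.9 ± 2.24 CPM, and Ebag9, a regulator of secretion, at 34.9 ± 3.04 against 27.9 ± 1.29 CPM. Neither gene's groups overlapped (log2 fold changes 0.46 ± 0.10 and 0.32 ± 0.072). Ap1s2, a subunit of the AP-1 clathrin adaptor, was at 54.9 ± 5.72 against 41.6 ± 5.12 CPM with 3 upACSS2 mice above all vector mice (log2 fold change 0.40 ± 0.089).

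The 12 genes of lowest p among the lower ones all fell by DESeq2, which again is not separate support, since they were picked on the same libraries. Ddx17, an RNA helicase of splicing and microRNA processing, was at 252, 256, 232, 261.5 and 279.5 CPM with upACSS2 and 330.3, 323, 308, 339 and 299.8 CPM with vector. All 5 upACSS2 mice lay below all 5 vector mice, a log2 fold change of -0.32 ± 0.061 (edgeR adjusted p = 0.147, DESeq2 adjusted p = 2.5e-05). Dusp11, a phosphatase that acts on RNA, was at 25.4, 24.6, 24.3, 31.1 and 30 CPM against 42.2, 42.4, 40.98, 42.65 and 38.1 CPM. It too had no overlap and had the lowest edgeR p of all named genes (unadjusted p = 1.49e-05, log2 fold change -0.60 ± 0.11, DESeq2 adjusted p = 0.000252). Nxf1, the main export factor of messenger RNA from the nucleus, was at 39.05, 37.02, 37.9, 43.45 and 52.7 CPM against 63.8, 59.3, 54.9, 62.3 and 53.96 CPM. There was no overlap between the groups (log2 fold change -0.48 ± 0.10). Zcchc7, a subunit of the nuclear RNA surveillance complex TRAMP, was at 23.2 ± 3.295 against 36.9 ± 2.56 CPM (-0.665 ± 0.14). Nktr, a cyclophilin with an arginine-serine-rich tail, was at 64.99 ± 9.06 against 90.75 ± 10.9 CPM (-0.48 ± 0.11). Neither gene had overlapping groups.

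The zinc finger genes Zscan26, Zkscan8 and Zmym6 had small log2 fold changes of -0.24 ± 0.05, -0.31 ± 0.072 and -0.37 ± 0.084, and none of their groups overlapped. Zscan26 was at 61.45, 61.9, 55.4, 60.9 and 62.4 CPM with upACSS2 and 71.7, 70.2, 70.3, 72.8 and 71.4 CPM with vector. Ascc2, of the ASCC complex that acts in alkylation repair and on stalled ribosomes, and Ttc39b, known for its part in lipoprotein metabolism, were also lower in all 5 upACSS2 mice than in any vector mouse. Their means were 19.5 ± 2.26 against 24.9 ± 1.36 CPM and 55.03 ± 7.35 against 73.2 ± 9.495 CPM. Ttc14 (75.9 ± 14.6 against 115 ± 17.01 CPM) and Cdr1os (33.7 ± 6.53 against 55.5 ± 9.94 CPM) lay below all vector mice in 4 upACSS2 mice. Cdr1os is an antisense RNA, and whether the counting used strand is not given in the sources used here, so its counts may include those of its partner.

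**Figure D2:**
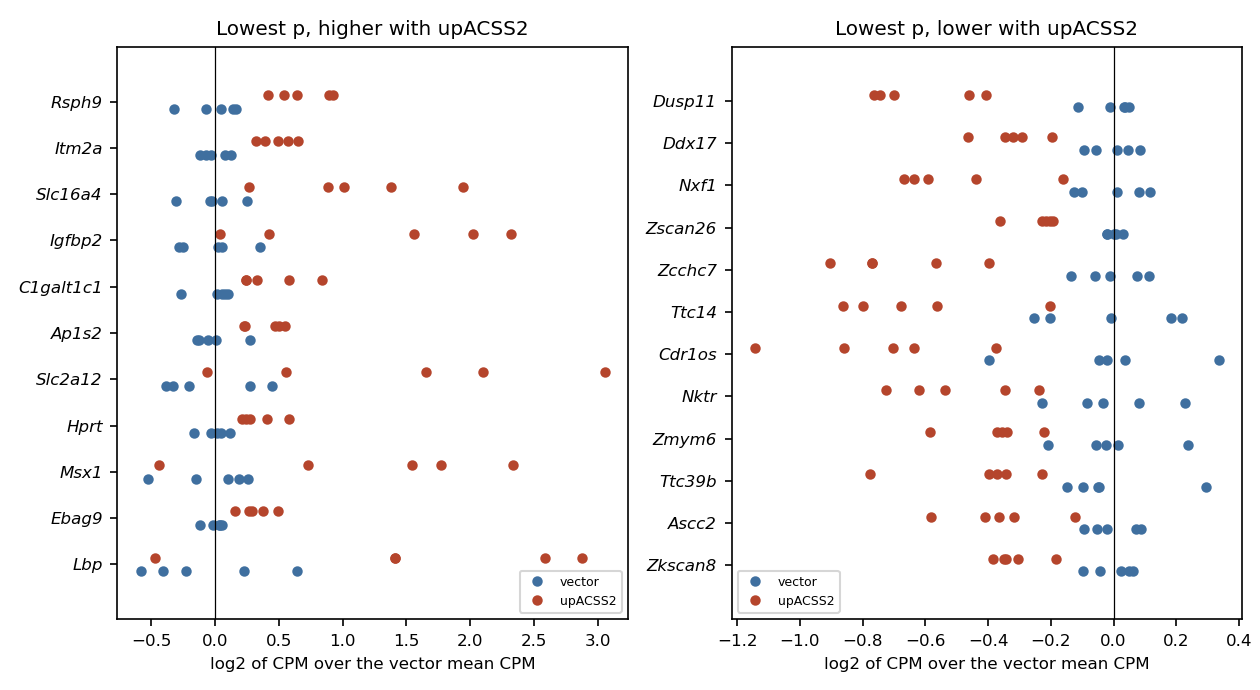
CPM of each mouse over the vector mean, on the log2 scale, for 11 higher and 12 lower genes of lowest p at 6 months, with 1 point per mouse. The upACSS2 points are all to the right of the vector points for Rsph9, Itm2a and Hprt and all to the left for Ddx17, Dusp11 and Nxf1, whereas 1 upACSS2 mouse falls among the vector mice for Igfbp2, Slc2a12, Msx1 and Lbp.

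Among the DESeq2 calls without overlap, Ogn, Rps26-ps1, Slc16a4 and Slco1c1 were among the 5 of highest log2 fold change. Ogn, a small proteoglycan of meningeal and connective tissue, was at 6.74, 16.4, 8.805, 5.655 and 7.615 CPM with upACSS2 and 3.82, 2.83, 2.97, 5.13 and 2.801 CPM with vector (log2 fold change 1.34 ± 0.31, DESeq2 adjusted p = 0.00965). Slco1c1, the thyroid hormone transporter of brain vessels and choroid plexus, was at 62.7, 55, 32.2, 34.4 and 51.55 CPM against 30.4, 28.2, 28.5, 30.2 and 27.35 CPM (log2 fold change 0.71 ± 0.17, or 0.27 with the choroid plexus covariate). Rps26-ps1 is a processed pseudogene that shares reads with Rps26, so its value of 1.31 ± 0.36 is uncertain. The lowest were Leng8, Zcchc7, Dusp11, Pcnx2 and Slc20a1. Leng8 was at 38.6 ± 8.725 against 64.1 ± 9.39 CPM (-0.725 ± 0.195) and Pcnx2 at 48.7 ± 6.51 against 71.5 ± 5.18 CPM (-0.56 ± 0.15). Slc20a1, a phosphate transporter, was at 91.1 ± 12.7 against 134 ± 40.5 CPM (-0.55 ± 0.14). The 85 genes that rose by DESeq2 had a median exonic length of 2566 bases and the 54 that fell 8902 bases, against 4279 bases over all genes tested.

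Markers of choroid plexus epithelium had the highest median of any list. All 12 tested markers were higher with upACSS2, with log2 fold changes of 1.55 to 3.81 and a median of 3.07, against a median of -0.009 over all genes tested. All 12 had an unadjusted p under 0.05 (against 7.67% of all genes) and 0 passed the adjusted threshold in edgeR. By DESeq2, 9 of the 12 rose (against 0.57% of all genes), 3 of which were also called on the 10 libraries alone. With their own mean level as a covariate the median was -0.002, which that fit sets by its construction. Their mean level was 6.20, 4.94, 3.24, 1.24 and 5.48 log2 CPM in upACSS2 mice 1 to 5 and 1.29, 1.03, 0.97, 2.74 and 2.88 log2 CPM in vector mice 1 to 5. The upACSS2 mice 1, 2, 3 and 5 were therefore above all vector mice, and the upACSS2 mouse 4 was within the vector range. For Aqp1, the water channel of the epithelium, the upACSS2 mice had 29.97, 11.7, 3.27, 0.833 and 17.75 CPM and the vector mice 0.651, 0.488, 0.229, 1.27 and 1.75 CPM (log2 fold change 3.81 ± 0.90, edgeR adjusted p = 0.147, DESeq2 adjusted p = 0.0105). Prlr, the prolactin receptor, was at 36.9 ± 36.2 against 6.63 ± 2.69 CPM (2.47 ± 0.60), and Clic6, a chloride channel protein, at 47.4 ± 44.4 against 5.696 ± 4.03 CPM (3.04 ± 0.76).

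The summed CPM of the 12 choroid plexus markers was 6340, 2315, 658.6, 138.2 and 3601 in the upACSS2 mice and 125.8, 94.9, 93.0, 336.4 and 482.8 in the vector mice. The 3 upACSS2 mice with the highest sums, numbers 1, 2 and 5, were the 3 with the highest Acss2, at 237, 100.5 and 111 CPM. At 1 month all 12 markers were again higher with upACSS2, with a median log2 fold change of 0.68. Their mean level there was 4.57, 3.44, 1.03, 1.64 and 3.77 log2 CPM in the upACSS2 mice and 1.98, 2.87, 2.04, 3.73 and 1.63 log2 CPM in the vector mice. At that time the highest Acss2 levels, 1465, 1190 and 317.8 CPM, went with choroid plexus levels of 3.77, 3.44 and 1.03 log2 CPM. In bulk tissue, more cells of a type and more RNA per cell cannot be told apart.

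Markers of vessels, mural cells and meninges were higher for 13 of 19 tested members, 5 at an unadjusted p under 0.05 (against 7.67% of all genes). Their median log2 fold change was 0.21 (-0.15 at 1 month). That median lay between 0.11 (without the upACSS2 mouse 2) and 0.36 (without the vector mouse 4) when 1 mouse was left out, and was 0.48 without the 3 mice that stood apart. Slco1a4, an organic anion transporter of brain endothelium, was at 22.1, 24.4, 21.55, 21.7 and 26.8 CPM with upACSS2 and 16.9, 16.4, 17.2, 15.03 and 13.3 CPM with vector. Its groups did not overlap, and it rose by DESeq2 (log2 fold change 0.56 ± 0.14, DESeq2 adjusted p = 0.0168). Rgs5, a pericyte marker, was at 67.7, 76.7, 76.1, 64.3 and 69.4 CPM against 54.4, 49.7, 56.4, 42.2 and 44.1 CPM. The 2 groups were separate (log2 fold change 0.52 ± 0.14, DESeq2 adjusted p = 0.0524). The growth factor Igf2, made by choroid plexus and meninges, was at 1.19 ± 0.909 against 0.292 ± 0.133 CPM (log2 fold change 2.00 ± 0.54, or 0.705 with the choroid plexus covariate). Red blood cell genes had a median of -0.008, which lay between -0.16 (without the vector mouse 5) and 0.20 (without the vector mouse 1) when 1 mouse was left out and was -0.16 without the 3 mice that stood apart. The globin Hba-a1 was at 8.46 ± 3.68 against 9.64 ± 3.95 CPM, and Hba-a2, a near copy that shares reads with it, at 1.07 ± 0.505 against 1.27 ± 0.864 CPM. Hbb-bt was at 2.78 ± 0.554 against 2.49 ± 1.14 CPM.

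Fold changes at 6 months varied with exonic length (Spearman's rho -0.322). This is the merged length of all annotated exons of a gene, which can exceed that of the transcript expressed. In quintiles of genes from the shortest to the longest exonic length, the median log2 fold change was 0.12, 0.036, -0.008, -0.048 and -0.10. Of the shortest quintile, up to 2261 bases, 68.8% of genes were higher with upACSS2, and of the longest quintile 26.6%. At 1 month the 5 medians ran the other way, at -0.081, -0.033, -0.004, 0.023 and 0.058. For each library, the median log2 CPM of the shortest genes minus that of the longest was taken, with each gene relative to its mean over the 20 PS19 libraries. It was 0.053, -0.042, 0.49, -0.052 and -0.048 in the upACSS2 mice and -0.13, -0.20, -0.094, -0.16 and -0.12 in the vector mice. All 5 upACSS2 mice were above all 5 vector mice, and the upACSS2 mouse 3 was far above the other 4. That mouse also had the highest share of mitochondrial counts, whose part in this gradient was not tested.

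**Figure D3:**
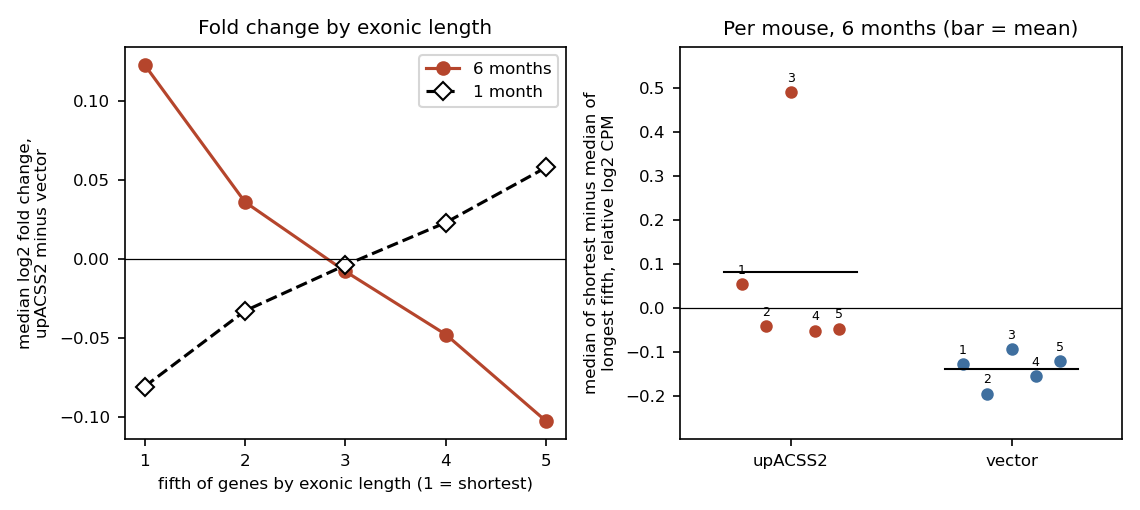
Left, median log2 fold change, upACSS2 minus vector, in quintiles of the tested genes by exonic length, at 6 months and at 1 month. Right, for each mouse at 6 months, the median relative log2 CPM of the shortest quintile minus that of the longest, with a bar at the mean. The 6-month medians go from 0.12 to -0.10 and those of 1 month from -0.081 to 0.058, and the upACSS2 mice lie above the vector mice on the right.

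The nuclear-encoded subunits of the respiratory chain, which are short transcripts, were higher with upACSS2 for 24 of 24 members. Of these, 17 had an unadjusted p under 0.05 (against 7.67% of all genes) and 5 had no overlap (against 1.31%). Their median log2 fold change was 0.36 (-0.085 at 1 month). Ndufs4, of complex I, was at 65.9, 57.6, 89.1, 59.85 and 58.1 CPM with upACSS2 and 53.6, 52.3, 47.96, 50.6 and 53.2 CPM with vector. The groups did not overlap (log2 fold change 0.36 ± 0.10, edgeR adjusted p = 0.182). Sdhb, of complex II, was at 126 ± 21.8 against 101 ± 3.785 CPM (0.32 ± 0.093), also without overlap, and Ndufa1, of complex I, at 54.2 ± 14.4 against 38.5 ± 3.67 CPM (0.49 ± 0.14). With the short-minus-long difference of each library as a covariate the median was 0.065. That covariate is made from the shortest and longest genes of the same libraries. A list of mostly short genes, such as this one or the ribosomal proteins, therefore moves toward 0 in part by the construction of the fit. The respiratory chain median was 0.20 without the upACSS2 mouse 3, and was 0.14 without the 3 mice that stood apart. The 12 tested messenger RNAs of the mitochondrial genome were also all higher, with a median of 0.38, but 0 of them had separate groups. The upACSS2 mouse 3, for example, had 43.5 CPM of mt-Atp6 against 12.9 to 18.3 CPM in the other 4 upACSS2 mice and 12.7 to 16.3 CPM in the vector mice.

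Cytosolic ribosomal proteins were higher for 24 of 24 listed members, 15 at an unadjusted p under 0.05 (against 7.67% of all genes). Their median was 0.32 (-0.068 at 1 month). Rpl38 was at 39.9, 43.1, 74.7, 41.3 and 40.5 CPM with upACSS2 and 35.55, 35.5, 38.7, 29.4 and 37.4 CPM with vector, and Rpl3 at 209.9, 179, 271, 181 and 193 CPM against 158.5, 163, 170.4, 126 and 168 CPM. Neither gene's groups overlapped (log2 fold changes 0.435 ± 0.16 and 0.395 ± 0.14), and Rplp1 was at 311 ± 91.7 against 229.5 ± 27.2 CPM (0.44 ± 0.155). The ribosomal protein median was 0.14 without the upACSS2 mouse 3, and was 0.13 without the 3 mice that stood apart and -0.027 with the short-minus-long covariate. Over all 82 tested cytosolic ribosomal protein genes, a group taken after the values were seen, 81 were higher, with a median of 0.355. Many of these genes have processed pseudogenes, and the counting of shared reads is not given in the sources used here.

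Long RNAs that stay in the nucleus had values on the other side, as did factors of nuclear speckles, and both groups were chosen after their values were seen. All 9 long nuclear RNAs were lower with upACSS2, 6 at an unadjusted p under 0.05 (against 6.44% of all genes). Their median log2 fold change was -0.80 (-0.44 at 1 month). Meg3, an imprinted non-coding RNA, was at 390, 329, 259, 494 and 695 CPM with upACSS2 and 852, 1152, 878.5, 699.9 and 793 CPM with vector. All 5 upACSS2 mice were below all 5 vector mice (log2 fold change -1.01 ± 0.33, edgeR adjusted p = 0.218, DESeq2 adjusted p = 0.116). Snhg11 (232 ± 55.2 against 435 ± 66.97 CPM, -0.90 ± 0.29) and Mirg (2.55 ± 1.21 against 5.78 ± 1.03 CPM, -1.151 ± 0.33) had no overlap either. Malat1, a speckle RNA, was at 339 ± 109 against 603 ± 139 CPM (-0.83 ± 0.30). Among 24 genes of splicing and speckles none was higher, with a median of -0.29 (-0.025 at 1 month). Of these, 16 had an unadjusted p under 0.05 (against 6.44% of all genes) and 6 fell by DESeq2 (against 0.362%). Srrm2, a scaffold of speckles, was at 244, 255, 138, 250.2 and 317 CPM against 319, 352, 335, 325 and 345 CPM. There was no overlap between the groups (log2 fold change -0.475 ± 0.14). Pnisr, an arginine-serine-rich protein, fell by DESeq2 (98.2 ± 19.3 against 147 ± 23.7 CPM, DESeq2 adjusted p = 0.025).

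Genes induced by type I interferon, the cytokine of antiviral defence, were lower with upACSS2 for all 43 tested members of 45. Of these, 1 had an unadjusted p under 0.05 (against 6.44% of all genes) and 2 had no overlap between the groups (against 1.19%). None passed the adjusted threshold in edgeR or DESeq2. The median log2 fold change was -0.73 at 6 months and -0.46 at 1 month. Their mean level was 1.425, 1.055, 2.03, 2.14 and 1.925 log2 CPM in the upACSS2 mice and 1.845, 1.83, 3.28, 2.83 and 2.51 log2 CPM in the vector mice. The upACSS2 mice 3, 4 and 5 lay within the vector range, which the vector mouse 3 extended upward. The type I interferon median was -0.48 without the vector mouse 3, and was -0.355 without the 3 mice that stood apart and -0.47 with the choroid plexus covariate. At 1 month the mean level was 0.87, 2.58, 1.82, 1.47 and 3.49 log2 CPM in the upACSS2 mice and 1.45, 2.80, 1.69, 0.72 and 4.42 log2 CPM in the vector mice. The vector mouse 5 was the highest there, and the middle value was 1.82 with upACSS2 and 1.69 with vector. The 1-month median was not refitted without that mouse.

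Ifi44, an interferon-induced protein, was at 0.866, 0.421, 0.587, 1.61 and 0.9775 CPM with upACSS2 and 1.06, 0.683, 10.1, 8.33 and 5.47 CPM with vector. The spread among the vector mice was wide (means 0.892 ± 0.457 against 5.12 ± 4.21 CPM), and the log2 fold change of -2.42 ± 0.99 had an edgeR adjusted p of 0.292. Oasl2, an oligoadenylate synthetase-like protein, was at 2.94, 2.103, 6.96, 7.17 and 9.26 CPM against 11.15, 7.71, 29.55, 20.97 and 15.1 CPM. In 4 of the upACSS2 mice it was below all vector mice (log2 fold change -1.55 ± 0.85). Irf7, the factor that amplifies interferon production, was at 1.43, 1.16, 3.44, 3.99 and 3.91 CPM against 2.77, 2.001, 9.03, 7.97 and 4.81 CPM. In 2 of the upACSS2 mice it was below all vector mice (log2 fold change -0.91 ± 0.85, edgeR adjusted p = 0.634). Ifit3, which binds foreign RNA, was at 10.02 ± 4.905 against 18.04 ± 9.798 CPM (-0.835 ± 0.64). Oas3, an activator of antiviral RNase L, was near the detection limit at 0.0579 ± 0.06596 against 0.495 ± 0.368 CPM (-2.64 ± 1.29).

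The interferon-stimulated response element, where STAT2 and IRF9 bind within a larger complex, was searched as GAAANNGAAA on both strands in RefSeq promoter windows, 250 bases before to 50 after each start. It was in 14 of the 31 type I interferon genes with a window (45.2%), in 10 of the 14 interferon gamma genes (71.4%) and in 4 of the 20 antigen presentation genes (20%), against 424 of 11667 of all tested genes with a window (3.63%). The interferon lists were made of genes known to be induced by interferon, so a high share follows from that choice and not from these mice. The 3 type I genes of lowest p at 6 months that hold it are shown over 120 bases around it, 5′ to 3′ on the strand of the gene in RefSeq GRCm38.p6, with the element in capitals. The windows are chr5:120777670-120777789 on the minus strand for Oas3, chr10:128270248-128270367 on the plus strand for Stat2, where the element is read on the opposite strand, and chr5:120907526-120907645 on the minus strand for Oas1a, where 2 elements overlap.
Oas3: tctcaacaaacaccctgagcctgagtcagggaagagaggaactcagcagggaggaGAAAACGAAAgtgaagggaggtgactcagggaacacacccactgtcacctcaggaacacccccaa
Stat2: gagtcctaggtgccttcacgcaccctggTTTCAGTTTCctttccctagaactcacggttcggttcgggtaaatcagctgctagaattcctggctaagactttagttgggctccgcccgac
Oas1a: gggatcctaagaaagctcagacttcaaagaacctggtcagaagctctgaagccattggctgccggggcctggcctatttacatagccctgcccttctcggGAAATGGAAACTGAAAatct
The log2 fold changes of these genes were -2.64, -0.39 and -1.16, with unadjusted p-values of 0.0535, 0.108 and 0.18 in edgeR. A match of letters is a description of the window and does not show that a factor bound it.

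The GTPases and chemokines induced mainly by interferon gamma were lower for 19 of 19 tested members, with a median of -1.01 (-0.97 at 1 month). Of these, 1 had an unadjusted p under 0.05 (against 6.44% of all genes). Igtp, a GTPase that acts on vacuoles of intracellular parasites, was at 3.73, 1.47, 5.199, 4.55 and 4.065 CPM with upACSS2 and 5.21, 4.49, 31.3, 10.05 and 7.22 CPM with vector. The values of 3 upACSS2 mice were below those of all vector mice (log2 fold change -1.58 ± 0.865, edgeR adjusted p = 0.408). The chemokine Cxcl9 (0.111 ± 0.122 against 0.976 ± 0.783 CPM) and the GTPase Tgtp2 (0.105 ± 0.0943 against 1.02 ± 1.39 CPM) were at about 1 CPM or less. A near copy of the latter, Tgtp1, was too low to be tested. The interferon gamma median was -0.54 without the vector mouse 3, and was -0.40 without the 3 mice that stood apart and -0.64 with the choroid plexus covariate. At 1 month the mean level of this list ran from 0.88 to 3.86 log2 CPM with upACSS2 and from -0.03 to 5.45 log2 CPM with vector, highest in the vector mouse 5.

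Genes of antigen presentation on MHC class I and II were lower for 21 of 24 members, with a median of -0.66 (-0.59 at 1 month). Of these, 0 had an unadjusted p under 0.05 (against 6.44% of all genes). H2-K1, a class I heavy chain, was at 13.2, 11.9, 38.6, 41.25 and 24.1 CPM with upACSS2 and 29.3, 24.5, 128, 83.5 and 60.1 CPM with vector. In 3 upACSS2 mice it lay below all vector mice (log2 fold change -1.33 ± 0.75, edgeR adjusted p = 0.426). Nlrc5, the activator of class I genes, was at 0.924 ± 0.391 against 2.96 ± 2.71 CPM (-1.64 ± 0.905). For H2-Q7, whose reads can be shared with neighbouring class I genes, the means were 0.339 ± 0.384 against 1.39 ± 0.7045 CPM (-1.80 ± 0.995, but 1.148 at 1 month). The antigen presentation median was -0.34 without the vector mouse 3, and was -0.40 without the 3 mice that stood apart, -0.41 with the choroid plexus covariate and -1.075 with the short-minus-long covariate. At 1 month the mean level of this list ran from 2.60 to 5.09 log2 CPM with upACSS2 and from 1.83 to 5.98 log2 CPM with vector.

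Interferon receptors, kinases and nucleic acid sensors had a median of -0.125 and single values of -0.69 to 0.18, with 16 of 18 tested members lower. The receptor and sensor median was -0.078 with the choroid plexus covariate. Adar, the RNA-editing enzyme that keeps the cell's own double-stranded RNA from being sensed, was at 137, 136, 83.9, 119.7 and 149 CPM with upACSS2 and 148, 158, 156, 147 and 152 CPM with vector. It was below every vector mouse in 4 upACSS2 mice (log2 fold change -0.28 ± 0.11, edgeR unadjusted p = 0.0166). The receptor chain Ifngr2 was at 71.5 ± 9.86 against 63.01 ± 9.275 CPM (0.18 ± 0.10) and the kinase Jak2 at 42.6 ± 3.61 against 46.9 ± 5.425 CPM (-0.14 ± 0.081). The interferon genes Ifnb1, Ifna4, Ifng and Ifnl2 were too low to be tested.

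**Figure D4:**
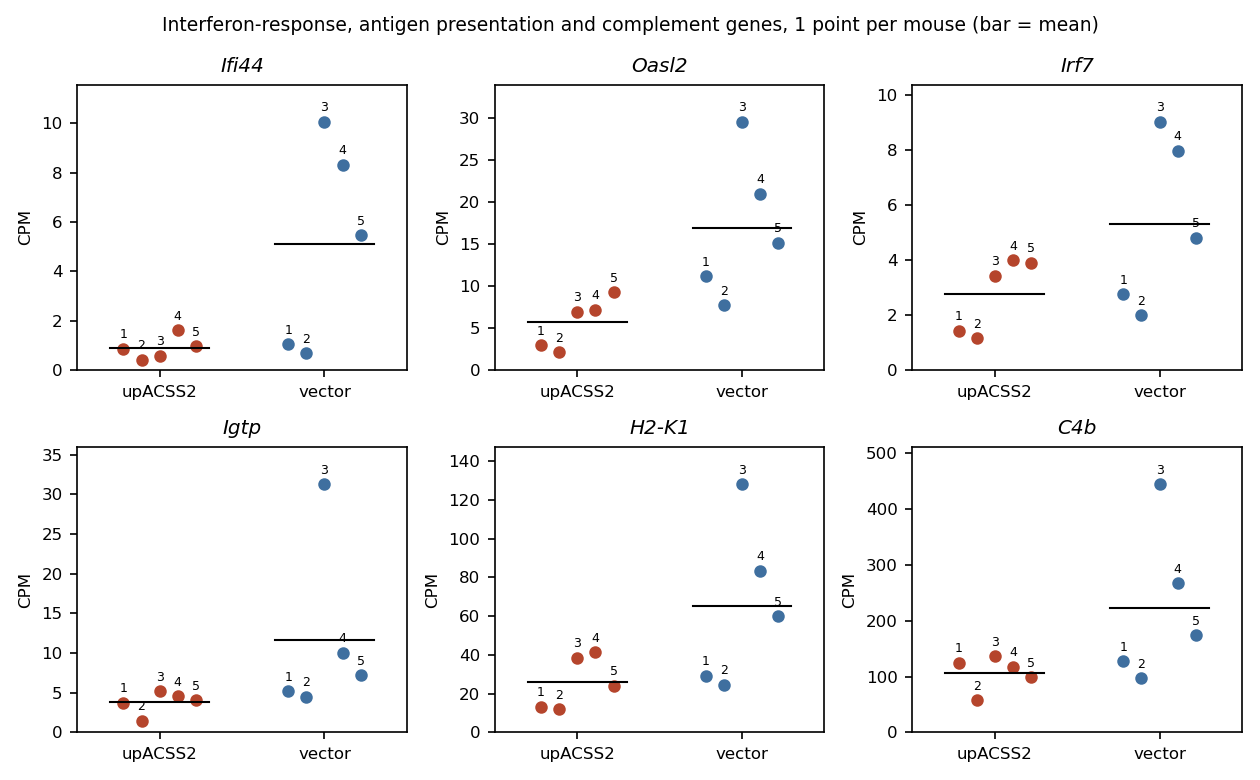
CPM of interferon-response, antigen presentation and complement genes in each of the 10 mice at 6 months, with 1 point per mouse and a bar at the mean, on linear axes that start at 0. The vector mice spread more widely than the upACSS2 mice. In each of the 6 genes the groups overlap.

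Complement genes had a median of -0.42, with 11 of 13 tested members lower. At an unadjusted p under 0.05 there were 2, both higher (against 7.67% of all genes). C4b, which marks glial reaction in many models of neurodegeneration, was at 125, 57.7, 136, 118 and 99.1 CPM with upACSS2 and 127.5, 97.5, 445, 267 and 174 CPM with vector. The groups overlapped (log2 fold change -1.05 ± 0.60, edgeR adjusted p = 0.427), and without the 3 mice that stood apart the log2 fold change was -0.41. The 2 regulators of complement on cell surfaces, Cd55 (5.76 ± 1.65 against 3.94 ± 0.891 CPM) and Cd59a (10.4 ± 4.52 against 6.75 ± 1.36 CPM), had log2 fold changes of 0.54 ± 0.20 and 0.62 ± 0.25. For Cd59a the value was -0.02 with the choroid plexus covariate. The complement median was -0.12 without the vector mouse 3, and was -0.11 without the 3 mice that stood apart, -0.13 with the choroid plexus covariate and -0.71 with the short-minus-long covariate.

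Markers of resting microglia had a median of -0.14 (12 of 14 lower, 1 at an unadjusted p under 0.05). Genes of disease-associated microglia had -0.27 (21 of 28 lower, 0 at an unadjusted p under 0.05). Over all genes 6.44% were lower at that p. The resting microglia median lay between -0.37 (without the upACSS2 mouse 3) and -0.009 (without the upACSS2 mouse 5) with 1 mouse left out. It was 0.034 with the choroid plexus covariate and -0.42 with the short-minus-long covariate. The disease-associated median lay between -0.41 (without the upACSS2 mouse 3) and -0.065 (without the vector mouse 3) with 1 mouse left out. It was -0.056 with the choroid plexus covariate and -0.52 with the short-minus-long covariate. P2ry12, the purine receptor of resting microglia, was at 62.95 ± 20.1 against 57.7 ± 7.51 CPM (0.12 ± 0.18), and Sall1, their transcription factor, at 25.02 ± 2.14 against 31.5 ± 7.33 CPM (-0.33 ± 0.16). Csf1r, the receptor microglia need to survive, and Olfml3 were at 135 ± 15.01 against 172 ± 35.2 CPM and 21.6 ± 6.97 against 31.6 ± 9.58 CPM. Among the disease-associated genes, the receptor Trem2 was at 20.3, 18.3, 53.9, 28.7 and 15.7 CPM with upACSS2 and 25.7, 15.8, 52.5, 38.4 and 33.8 CPM with vector, and the groups overlapped (log2 fold change -0.285 ± 0.36). The cystatin Cst7 was at 2.26, 1.68, 17.95, 6.101 and 2.21 CPM against 4.47, 1.32, 8.002, 4.82 and 7.13 CPM, where the upACSS2 mouse 3 alone set the higher mean. The chemokine Ccl3 had no overlap at 0.628 ± 0.2625 against 1.42 ± 0.547 CPM (-1.09 ± 0.525, edgeR adjusted p = 0.357). The protease Ctsb was at 594 ± 72.7 against 733.5 ± 178 CPM, and Csf1, a ligand of Csf1r, at 27.5 ± 1.28 against 35.2 ± 8.47 CPM.

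Lymphocyte markers were scarce, and 13 of 21 were too low to be tested, among them the defining Cd3e, Cd4 and Ms4a1. Of the 8 tested, 7 were lower, with a median of -0.69 (-1.02 at 1 month). The T cell genes Trbc2, Cd8a and Cd3g were at 0.32 ± 0.1796 against 0.7905 ± 1.201 CPM, 0.214 ± 0.307 against 0.457 ± 0.416 CPM and 0.1297 ± 0.108 against 0.298 ± 0.281 CPM. Their mean level was highest in the vector mouse 3, at 1.31 log2 CPM against -0.67 to 0.55 log2 CPM in the other 9. The lymphocyte median was -0.29 without the vector mouse 3, and was -0.18 without the 3 mice that stood apart. It was -0.27 with the 10 libraries of 6 months fitted alone and -1.06 with no filter on low counts.

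Astrocyte markers had a median of -0.11, with 11 of 14 lower. The astrocyte median lay between -0.175 (without the vector mouse 2) and 0.016 (without the vector mouse 3) with 1 mouse left out. It was 0.021 without the 3 mice that stood apart, 0.048 with the choroid plexus covariate and -0.18 with the short-minus-long covariate. Ntsr2 and Aldh1l1 were at 111 ± 12.6 against 125 ± 16.6 CPM and 59.05 ± 4.83 against 66.97 ± 18.05 CPM. Genes of reactive astrocytes had a median of -0.48, with 14 of 19 lower and 0 at an unadjusted p under 0.05. Gfap, the intermediate filament raised in reactive astrocytes, was at 1472, 839, 2588, 2497 and 893 CPM against 1874, 981, 4108, 2679 and 1937 CPM, and the groups overlapped (log2 fold change -0.48 ± 0.39, edgeR adjusted p = 0.582). The protease inhibitor Serpina3n was at 104 ± 37.8 against 152 ± 67.8 CPM (-0.54 ± 0.30). The oncostatin M receptor Osmr was at 10.6 ± 4.74 against 19.35 ± 13.1 CPM (-0.845 ± 0.47), and Steap4 at 0.5097 ± 0.2001 against 0.926 ± 0.685 CPM (-0.79 ± 0.57). The reactive astrocyte median was 0.03 without the vector mouse 3, and was 0.13 without the 3 mice that stood apart and -0.088 with the choroid plexus covariate.

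Markers of myelinating oligodendrocytes had a median of 0.003, with 8 of 14 higher. The oligodendrocyte median lay between -0.165 (without the upACSS2 mouse 3) and 0.19 (without the vector mouse 3) with 1 mouse left out. It was 0.16 without the 3 mice that stood apart, -0.015 with the choroid plexus covariate and -0.31 with the short-minus-long covariate. Myrf, the transcription factor of myelination, was at 50.2 ± 11.2 against 66.9 ± 24.4 CPM (-0.41 ± 0.18, edgeR unadjusted p = 0.0378). The myelin proteins Opalin and Mag were at 17.2 ± 5.59 against 21.5 ± 9.33 CPM and 149.6 ± 34.35 against 180.2 ± 70.3 CPM. Precursor markers had a median of -0.16, with 7 of 10 lower, 4 of them at an unadjusted p under 0.05 (against 6.44% of all genes). The precursor median lay between -0.28 (without the upACSS2 mouse 1) and -0.059 (without the vector mouse 3) with 1 mouse left out. It was 0 without the 3 mice that stood apart and -0.28 with the choroid plexus covariate. Gpr17, a receptor of committed precursors, was at 44.02, 42.1, 35.05, 33.6 and 34.3 CPM with upACSS2 and 39.05, 50.3, 60.4, 47.98 and 41.3 CPM with vector. In 3 of the upACSS2 mice it was below all vector mice (log2 fold change -0.34 ± 0.12). The proteoglycans Vcan and Cspg4, which have long transcripts, were at 21.95 ± 2.98 against 27.6 ± 2.3 CPM and 14.5 ± 4.34 against 18.7 ± 0.9635 CPM (-0.32 ± 0.13 and -0.355 ± 0.15).

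Tau, its kinases and its phosphatases had a median of -0.067, with 12 of 20 lower. Of these, 1 had an unadjusted p under 0.05 (against 6.44% of all genes). Ttbk2, a tau tubulin kinase, was at 79.3, 88.9, 76.7, 84.8 and 85.97 CPM with upACSS2 and 86.7, 96.5, 119.7, 93.98 and 88.5 CPM with vector. The values of 4 upACSS2 mice were below those of all vector mice (log2 fold change -0.22 ± 0.09, edgeR unadjusted p = 0.0222). The kinase Gsk3b was at 202 ± 32.6 against 229.7 ± 9.79 CPM (-0.19 ± 0.105), and Ppp2ca, the catalytic subunit of the main tau phosphatase, at 467 ± 51.4 against 424 ± 22.8 CPM (0.14 ± 0.07). The tau median was 0.003 without the upACSS2 mouse 3, and was -0.026 without the 3 mice that stood apart and 0.055 with the short-minus-long covariate.

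Genes of the presynaptic terminal had a median of -0.13 (15 of 20 lower, 1 at an unadjusted p under 0.05). Postsynaptic genes had 0.023 (11 of 21 higher, 0 at an unadjusted p under 0.05). Over all genes 6.44% were lower and 7.67% higher at that p. The presynaptic median lay between -0.19 (without the upACSS2 mouse 5) and -0.016 (without the upACSS2 mouse 3) with 1 mouse left out. It was -0.20 with the choroid plexus covariate and 0.061 with the short-minus-long covariate. The postsynaptic median lay between -0.088 (without the vector mouse 3) and 0.06 (without the upACSS2 mouse 3) with 1 mouse left out. It was -0.082 without the 3 mice that stood apart and 0.19 with the short-minus-long covariate. Sv2a, a synaptic vesicle protein, was at 478, 438, 302, 429 and 521 CPM with upACSS2 and 497, 516, 578.5, 492 and 466 CPM with vector. It was below every vector mouse in 3 upACSS2 mice (log2 fold change -0.23 ± 0.11, edgeR unadjusted p = 0.0466). Pclo, a scaffold of the active zone with a very long transcript, was at 299 ± 84.3 against 379 ± 60.5 CPM (-0.34 ± 0.18, or 0.036 with the short-minus-long covariate). The glutamate receptor subunits Grin1 and Grin2b were at 458 ± 122 against 547 ± 76.99 CPM and 626 ± 213 against 700 ± 147 CPM, and the adhesion protein Nlgn2 at 172 ± 47.1 against 192 ± 17.1 CPM. Their log2 fold changes of -0.255 ± 0.16, -0.16 ± 0.20 and -0.16 ± 0.15 were 0.072, 0.24 and 0.10 with that covariate.

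Genes induced by neuronal activity had a median of -0.075, with 19 of 28 lower. Of these, 1 had an unadjusted p under 0.05 (against 6.44% of all genes). The activity median lay between -0.21 (without the upACSS2 mouse 4) and 0.001 (without the vector mouse 5) with 1 mouse left out. It was -0.13 with the choroid plexus covariate and 0.011 with the short-minus-long covariate. These transcripts respond within minutes to hours, and the mice were killed 30 min after recall. Fos was at 27, 20.8, 23.9, 36.7 and 22.02 CPM with upACSS2 and 28.6, 24.8, 39.15, 29.9 and 36.3 CPM with vector, and 3 upACSS2 mice lay below all vector mice (log2 fold change -0.275 ± 0.22, edgeR adjusted p = 0.583). Arc, a postsynaptic protein of plasticity, was at 246, 278, 221.5, 428.5 and 238 CPM against 300.1, 256, 205, 270.1 and 413 CPM, and its log2 fold change was -0.032 ± 0.22. The nuclear receptor Nr4a2 was at 38.5 ± 8.22 against 49.6 ± 7.25 CPM (-0.37 ± 0.15). The transcription factor Npas4 was at 13.4 ± 4.27 against 17.7 ± 3.35 CPM (-0.385 ± 0.24), and Trib1 at 12.6 ± 3.24 against 15.6 ± 4.597 CPM (-0.29 ± 0.20).

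Among the subfields, markers of dentate granule cells had a median of 0.11 (8 of 10 higher), CA1 markers 0.014 (6 of 10 higher) and CA3 and CA2 markers 0.035 (6 of 10 higher), with 0 members of these at an unadjusted p under 0.05. Calb1, a calcium buffer of granule cells, was at 134 ± 40.3 against 104 ± 34.5 CPM, Tdo2 at 6.83 ± 2.89 against 4.103 ± 2.255 CPM and C1ql2 at 56.55 ± 19.4 against 47.9 ± 15.9 CPM. In CA1, Ndst3 was at 18.1 ± 7.37 against 22.9 ± 6.02 CPM and Man1a at 128 ± 48.2 against 111 ± 37.5 CPM. In CA3 and CA2, Map3k15, Bok and Ptpn5 were at 4.9 ± 1.38 against 3.36 ± 1.77 CPM, 84.5 ± 38.3 against 63.7 ± 22.95 CPM and 104 ± 14 against 114 ± 11.8 CPM. None of these 8 genes had separate groups. The dentate median lay between -0.026 (without the upACSS2 mouse 4) and 0.32 (without the vector mouse 1) with 1 mouse left out. It was 0.07 without the 3 mice that stood apart, 0.22 with the choroid plexus covariate and 0.26 with the short-minus-long covariate. The CA1 median lay between -0.16 (without the upACSS2 mouse 2) and 0.20 (without the vector mouse 5) with 1 mouse left out. It was -0.01 without the 3 mice that stood apart, 0.093 with the choroid plexus covariate and 0.12 with the short-minus-long covariate. The CA3 and CA2 median lay between -0.15 (without the vector mouse 3) and 0.17 (without the upACSS2 mouse 4) with 1 mouse left out. It was -0.092 without the 3 mice that stood apart, -0.17 with the choroid plexus covariate and 0.19 with the short-minus-long covariate. Interneuron markers had a median of -0.061 (9 of 12 lower). The interneuron median lay between -0.14 (without the vector mouse 4) and 0.01 (without the vector mouse 3) with 1 mouse left out. It was 0.034 with the short-minus-long covariate. Reln, the extracellular protein reelin, was at 72.7 ± 21.5 against 96.1 ± 8.25 CPM (-0.40 ± 0.17, edgeR unadjusted p = 0.0258). The serotonin receptor Htr3a was at 14.9 ± 1.85 against 11.97 ± 2.83 CPM (0.32 ± 0.14, edgeR unadjusted p = 0.0333), and the peptide Cck at 261 ± 13.2 against 223 ± 48.6 CPM.

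Markers of tissue next to the dorsal hippocampus differed between single mice. Thalamic markers had a median of -0.64 (10 of 12 lower), and the value rested on the vector mouse 4. Its level of Tcf7l2, the transcription factor of thalamic neurons, was 62.8 CPM against 3.66 to 6.34 CPM in the other 4 vector mice. The thalamic median was 0.31 without the vector mouse 4, and was 0.545 without the 3 mice that stood apart. Slc17a6, the vesicular glutamate transporter of the thalamus, was at 8.13, 18.2, 10.7, 22.8 and 7.41 CPM with upACSS2 and 3.498, 10.6, 54.8, 122 and 13.1 CPM with vector, and Rgs16 at 4.96 ± 0.748 against 9.63 ± 6.83 CPM. Cortical markers had a median of -0.31 (10 of 11 lower). The cortical median was -0.039 without the vector mouse 3, and was 0.057 without the 3 mice that stood apart. Tbr1, a factor of deep cortical layers, was at 78.1 CPM in the vector mouse 3 against 34.0 to 40.6 CPM in the other 4 vector mice, and Rspo1 was at 7.14 CPM against 0.48 to 1.07 CPM. Over all mice Tle4 was at 56.7 ± 6.81 against 64.8 ± 9.7 CPM. Striatal markers had a median of 0.19 (8 of 10 higher, 3 at an unadjusted p under 0.05, against 7.67% of all genes). The striatal median lay between 0.085 (without the upACSS2 mouse 4) and 0.36 (without the vector mouse 4) with 1 mouse left out. It was 0.505 without the 3 mice that stood apart and 0.092 with the choroid plexus covariate. Ppp1r1b, the phosphatase inhibitor DARPP-32, was at 76.2, 57.7, 59.6, 46.25 and 63.2 CPM against 41.5, 35.4, 49.9, 50.01 and 48.8 CPM. In 4 of the upACSS2 mice it was above all vector mice (log2 fold change 0.425 ± 0.12, edgeR adjusted p = 0.182). Adora2a and Six3 were low, at 1.99 ± 1.19 against 1.06 ± 0.1985 CPM and 1.355 ± 0.853 against 0.514 ± 0.277 CPM, and the value of Six3 was -0.235 with the choroid plexus covariate.

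The enzymes that make, move or use acetyl-CoA, among which ACSS2 acts, had a median of 0.099, with 12 of 21 tested members higher. Of these, 2 had an unadjusted p under 0.05 (against 7.67% of all genes). Acat1, the mitochondrial thiolase of ketone metabolism, was at 114, 103, 124, 101 and 93.7 CPM with upACSS2 and 93.2, 92.7, 92.8, 92.6 and 94.1 CPM with vector. The values of 4 upACSS2 mice were above those of all vector mice (log2 fold change 0.20 ± 0.07, edgeR unadjusted p = 0.00864). Pdhb and Dld, subunits of the pyruvate dehydrogenase complex, were at 119 ± 13.5 against 105 ± 10.96 CPM and 175 ± 21.05 against 156 ± 8.95 CPM (0.18 ± 0.08 and 0.17 ± 0.082). The acetyl-CoA median was 0.037 without the upACSS2 mouse 1, and was 0.032 without the 3 mice that stood apart and 0.042 with the choroid plexus covariate.

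Histone acetyltransferases, deacetylases and readers of acetylated lysine had a median of -0.062, with 17 of 24 lower. At an unadjusted p under 0.05 there was 1, which was higher (against 7.67% of all genes). Hat1, the acetyltransferase of newly made histones, was at 16.6, 16.4, 20.1, 15.65 and 15.3 CPM with upACSS2 and 14.6, 12.6, 15.03, 15.7 and 13.2 CPM with vector. It was above every vector mouse in 3 upACSS2 mice (log2 fold change 0.24 ± 0.105, edgeR unadjusted p = 0.0342). The deacetylase Hdac7 was at 8.497 ± 1.66 against 11.35 ± 1.805 CPM (-0.415 ± 0.20) and the acetyltransferase Kat7 at 71.6 ± 10.1 against 80.3 ± 4.93 CPM (-0.16 ± 0.086). The histone acetylation median was -0.03 without the 3 mice that stood apart and 0.015 with the short-minus-long covariate.

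Genes of cholesterol synthesis and uptake were higher for 22 of 23 tested members, 4 at an unadjusted p under 0.05 (against 7.67% of all genes). Their median was 0.18 (0.27 at 1 month). Mvk, mevalonate kinase, was at 16.3, 13.7, 15.5, 14.5 and 16.1 CPM with upACSS2 and 9.925, 14.6, 11.8, 12.7 and 11.6 CPM with vector. In 3 of the upACSS2 mice it was above all vector mice (log2 fold change 0.32 ± 0.10, edgeR adjusted p = 0.201). Idi1 and Cyp51, enzymes of the steps before and after squalene, were at 5.605 ± 0.652 against 3.62 ± 1.33 CPM and 54.9 ± 5.89 against 43.6 ± 10.7 CPM (0.63 ± 0.21 and 0.34 ± 0.14). The mean level of the list was highest in the vector mouse 2, at 5.07 log2 CPM. The cholesterol median was 0.40 without the vector mouse 2, and was 0.068 with the choroid plexus covariate and 0.30 with the short-minus-long covariate. Fatty acid synthesis had a median of -0.087 (7 of 12 lower). The fatty acid median was -0.046 without the vector mouse 4, and was -0.036 without the 3 mice that stood apart, -0.051 with the choroid plexus covariate and -0.011 with the short-minus-long covariate. Its regulator Srebf1 was at 70.1 ± 6.94 against 90.99 ± 37.05 CPM, the carboxylase Acaca at 41.5 ± 8.45 against 47.98 ± 6.47 CPM and the elongase Elovl1 at 9.05 ± 2.33 against 11.2 ± 2.13 CPM.

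Glycolysis had a median of -0.029 (10 of 18 lower, 1 at an unadjusted p under 0.05, against 6.44% of all genes). The glycolysis median lay between -0.072 (without the vector mouse 4) and 0.015 (without the upACSS2 mouse 3) with 1 mouse left out. It was -0.073 without the 3 mice that stood apart, -0.105 with the choroid plexus covariate and 0.045 with the short-minus-long covariate. The phosphofructokinase Pfkp was at 205 ± 35.5 against 244.5 ± 31.5 CPM (-0.255 ± 0.115, edgeR unadjusted p = 0.0375). Gapdh was at 327 ± 33.3 against 365 ± 29.7 CPM and lactate dehydrogenase A, Ldha, at 205 ± 13.7 against 183 ± 23.7 CPM. Stress-response genes had a median of 0.021 (13 of 23 higher, 1 at an unadjusted p under 0.05, against 7.67% of all genes). The stress median lay between 0.003 (without the upACSS2 mouse 3) and 0.095 (without the vector mouse 5) with 1 mouse left out. It was 0.009 without the 3 mice that stood apart, -0.10 with the choroid plexus covariate and 0 with the short-minus-long covariate. The chaperone Dnajb9 was at 59.65 ± 7.76 against 51.35 ± 3.47 CPM (0.21 ± 0.085, edgeR unadjusted p = 0.0204). Pdia6 and Creld2, also of the endoplasmic reticulum, were at 122 ± 17 against 108 ± 13.02 CPM and 13.8 ± 1.48 against 11.95 ± 1.63 CPM. Lysosomal and autophagy genes had a median of -0.12 (17 of 24 lower, 4 of these at an unadjusted p under 0.05, against 6.44% of all genes). The lysosomal median lay between -0.20 (without the upACSS2 mouse 3) and -0.031 (without the vector mouse 3) with 1 mouse left out. It was -0.066 without the 3 mice that stood apart, -0.076 with the choroid plexus covariate and -0.22 with the short-minus-long covariate. The cholesterol transporter Npc1 was at 66.8 ± 5.95 against 89.35 ± 21.25 CPM (-0.42 ± 0.13) and the autophagy enzyme Atg7 at 18.1 ± 3.685 against 22.5 ± 1.07 CPM (-0.30 ± 0.11).

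**Figure D5:**
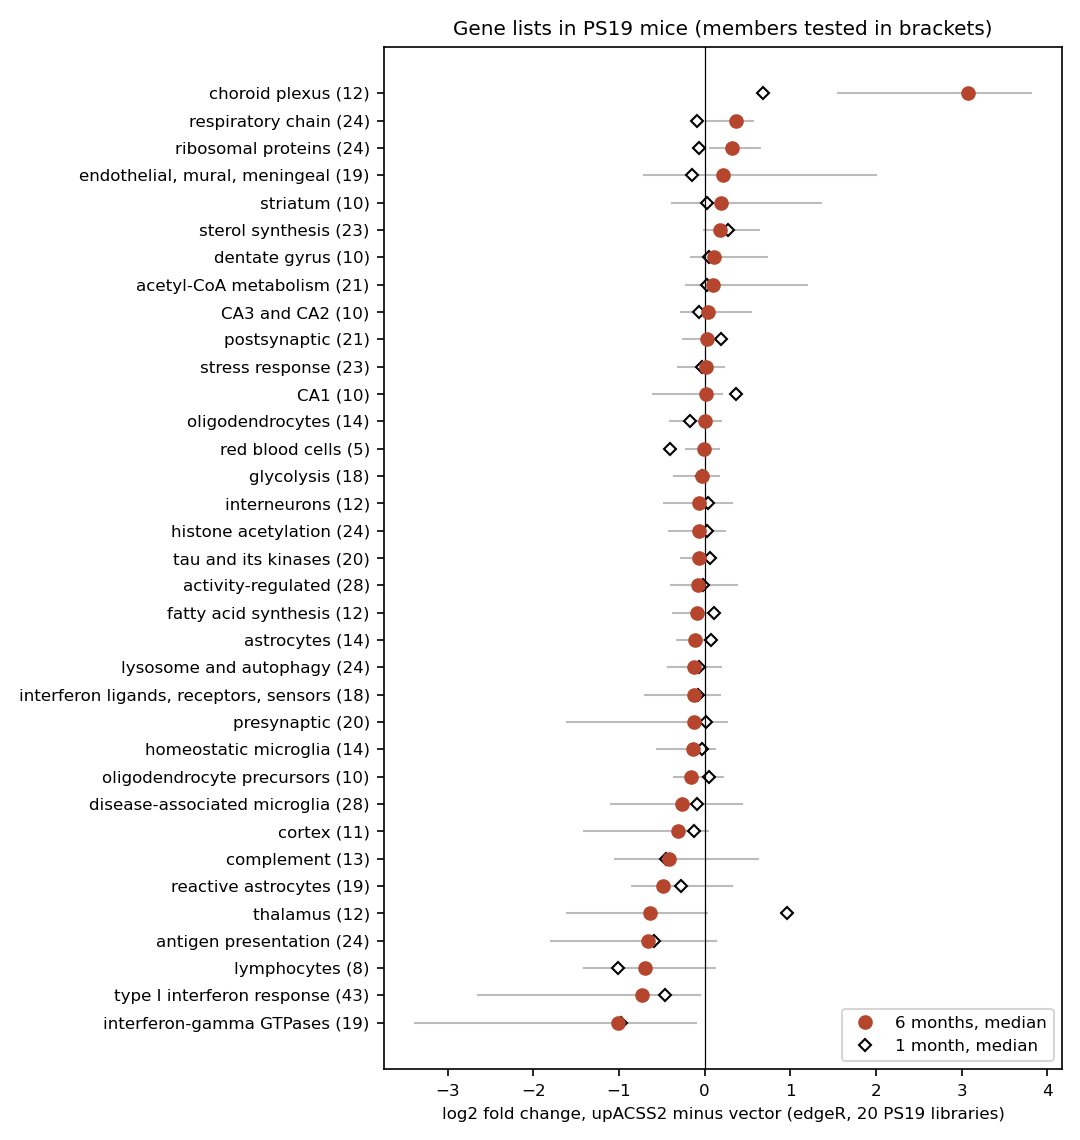
Median log2 fold change, upACSS2 minus vector, of each gene list in the PS19 mice at 6 months (filled circles) and at 1 month (open diamonds), with the number of members tested in brackets. Choroid plexus markers stand at 3.07 at 6 months, the interferon lists lie below 0 at both times, and the respiratory chain and ribosomal lists are above 0 at 6 months and below 0 at 1 month. The medians do not show the spread between mice. For the type I interferon list at 1 month, levels ran from 0.87 to 3.49 log2 CPM with upACSS2 and from 0.72 to 4.42 with vector.

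The difference between the 6-month and the 1-month effects was tested in the same 20 libraries. In edgeR 0 of 15850 genes passed an adjusted p of 0.05 (0%), with 1956 genes at an unadjusted p under 0.05 and a lowest adjusted p of 0.361. DESeq2 called 3 genes and limma with voom and sample quality weights 0, with 1913 unadjusted. The 1-month comparison itself had 0 calls in edgeR, with 463 genes at an unadjusted p under 0.05. Of the 24 respiratory chain genes, 18 had an unadjusted p under 0.05 for the difference, as had 8 of 24 ribosomal protein genes and 6 of 12 choroid plexus markers. Over all genes it was 1956 of 15850. It was 0 of the 43 type I interferon genes and 0 of the 19 interferon gamma genes. The type I list ran from 0.72 to 4.42 log2 CPM among the 1-month vector mice, so 0 does not show equal effects. The 1-month tissue was whole hippocampus for upACSS2 and dorsal for vector, so time and dissection cannot be told apart here. Zscan26 had a log2 fold change of -0.24 at 6 months and 0.10 at 1 month (edgeR unadjusted p of the difference 0.000139, adjusted p = 0.361). For Itm2a the values were 0.49 and -0.11 (edgeR unadjusted p 0.000495), and for Ddx17 -0.32 and 0.006 (edgeR unadjusted p 0.00116).

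The same viruses were also given to C57BL6 mice of the series without the transgene, 10 months old with dorsal hippocampus taken (6 upACSS2 and 5 vector) or aged with whole hippocampus taken (12 and 12). The 10-month mice received 1.2e11 viral genomes and the aged mice, 22 to 23 months old and 2 months after injection, 1.5e11, against 1.5e10 in the PS19 mice. Genotype, age, dose and time after injection therefore cannot be told apart between these sets, nor can dissection for the aged mice. These were counted and normalized in tables of their own, and the difference from the PS19 effect was not tested. Acss2 had log2 fold changes of 0.31 and 0.20 there (edgeR adjusted p = 0.518 and 0.832), against 1.19 in PS19 at 6 months. The median of the type I interferon list was -0.064 (26 members tested) and -0.003 (34 tested), against -0.73 in PS19 at 6 months (43 tested). Ifi44 and Oas3, at -2.42 and -2.64 in PS19, were tested in neither of the other sets. These medians therefore cover unlike genes, and no PS19 median over the shared members was taken. The choroid plexus median was -0.087 (8 tested) and 0.17 (12 tested), against 3.07 (12 tested), so the 10-month value covers fewer markers. The respiratory chain median was -0.21 and -0.091, and the ribosomal protein median -0.16 and -0.091, against 0.36 and 0.32.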

How the data were processed

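RNA-seq of the 20 PS19 libraries was taken from 1 table of raw counts per gene deposited by the authors, of which the 10 libraries of 6 months make the comparison. Extraction was by Trizol and RNeasy and library construction by an NEB kit, per the labels' protocols. The submitters' processing notes name STAR, featureCounts, HTSeq, DESeq2 and mm10. Which tool made the counts, its version and its strand setting are not given in the sources used here. Of the columns with values per sample, 0 had no sample.

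The counts were scaled by TMM and filtered with filterByExpr, and all 4 PS19 groups (virus by time) were fitted in edgeR 4.0.16 (R 4.3.3) with the quasi-likelihood test, so that they share 1 estimate of the spread (biological coefficient of variation 0.193). P-values were adjusted by Benjamini-Hochberg over all genes tested, with a threshold of 0.05. DESeq2 1.42.0, limma 3.58.1 with voom and quality weights, robust spread, RLE size factors, no count filter, a fit of the 10 libraries alone, a replicate block and leaving out each mouse were alternatives. Log2 CPM use a prior count of 2. Total counts of 9368193 to 33259982 per library set the counting precision. The labels name separate mice, and the p-values measure the spread between them. The most similar pair of replicates differed by a chi-square of 5.05 per gene, above sampling noise, so each library was counted once. Replicate numbers did not pair the libraries: the deviations of same-numbered upACSS2 and vector libraries correlated between -0.165 and 0.194.

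The 35 gene lists (637 genes) and the comparison itself were chosen with earlier results of these data known. Named genes are Acss2 and Prnp, up to 12 genes of lowest p in each direction with mean log2 CPM of at least 1, the 3 members of lowest p in each list, 11 genes named wherever they rank, and the 5 highest and 5 lowest DESeq2 calls without overlap, and some genes that these rules take are not reported here. Gene positions and exonic lengths are from the annotation of mm10, matched for 98.4% of genes tested. The last 3 alternatives were chosen after seeing the data: leaving out the 3 libraries that stand apart, the choroid plexus level as a covariate, and the short-minus-long difference as a covariate. On counts simulated from these libraries (15673 genes), the test recovered 46.5% of 99 genes changed by 1.5-fold and 74.5% of 98 genes changed by 2-fold, and 6.3% of its 127 calls were false. Apart from the set changes, each gene was drawn independently from 1 mean for all 20 libraries, with no shift shared by genes of a library. The real libraries held such shifts, as in choroid plexus markers and the short-minus-long difference, so these rates do not carry over to them.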

Additional observations from a re-analysis of the deposited data

Results flagged for a closer look

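Within each group of 5 mice, 26 values of named genes and lists lay farther from the other 4 mice than Dixon's 95% limit on the log2 scale allows, among 352 values examined, where chance gives about 17.6.

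The upACSS2 mouse 3 had 10 of them. Its mean level was 5.17 log2 CPM for the histone acetylation list (5.37 to 5.45 in the other 4 upACSS2 mice), 7.07 for the tau list (7.34 to 7.44) and 7.26 for the ribosomal protein list (6.48 to 6.55). For single genes it had 55.4 CPM of Zscan26 (60.9 to 62.4), 53.8 of Kat7 (73.8 to 78.8), 3.69 of Rgs16 (4.94 to 5.51), 91.9 of Nlgn2 (172 to 213) and 145 of Gsk3b (207 to 226). It had 473 CPM of Rplp1 (248 to 286) and 74.7 of Rpl38 (39.9 to 43.1). Of the other upACSS2 mice, mouse 1 stood apart for the oligodendrocyte precursor list at 4.97 log2 CPM (4.69 to 4.76) and for C1ql2 at 25 CPM (54.6 to 72.9). Mouse 2 stood apart for Igtp at 1.47 CPM (3.73 to 5.2), Hba-a1 at 14.9 CPM (6.1 to 7.62) and Rspo1 at 1.37 CPM (0.617 to 0.714), and mouse 5 for the striatum list at 3.18 log2 CPM (2.65 to 2.76).

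Among the vector mice, mouse 3 had 19 CPM of C1galt1c1 (23.2 to 24.5 in the other 4), 89.8 of Ttc39b (66.1 to 70.9), 205 of Slc20a1 (108 to 125), 14.5 of Hdac7 (10.1 to 11), 78.1 of Tbr1 (34 to 40.6) and 7.14 of Rspo1 (0.481 to 1.07). Mouse 4 had 62.8 CPM of Tcf7l2 (3.66 to 6.34), 126 of Rpl3 (158 to 170) and a respiratory chain list level of 6.68 log2 CPM (6.88 to 6.91). Mouse 1 had 1.63 CPM of the pseudogene Rps26-ps1 (6.46 to 8.02).

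For 7 named genes, all 5 upACSS2 mice lay on one side of the vector mean at 6 months and on the other side at 1 month. The difference of mean log2 CPM, upACSS2 minus vector, was 0.45 at 6 months and -0.11 at 1 month for C1galt1c1, 0.32 and -0.09 for Ebag9, -0.24 and 0.1 for Zscan26, and -0.18 and 0.12 for Kat7. It was 0.17 and -0.16 for Ldha, 0.13 and -0.07 for Ppp2ca, and -0.2 and 0.17 for Gsk3b. In edgeR the difference between the times had adjusted p-values of 0.361, 0.361, 0.361, 0.38, 0.366, 0.405 and 0.372 in that order, so none passed 0.05.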

How the results depend on the processing

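At 6 months edgeR called 0 genes at an adjusted p of 0.05 under RLE size factors, robust spread, no filter on low counts (2989 genes at an unadjusted p under 0.05) and the 10 libraries alone (1650 unadjusted), and also without the 3 libraries that stand apart (1125), with the choroid plexus covariate (1899) and with the short-minus-long covariate (1133). DESeq2 called 139 genes, or 73 (28 higher and 45 lower) on the 10 libraries alone, and leaving out 1 mouse gave 0 to 78 calls in edgeR. The difference between 6 months and 1 month had 0 calls in edgeR under every alternative run and 3 in DESeq2. The replicate block, whose numbers did not pair the libraries (correlations -0.165, -0.0633, 0.194, -0.0582 and 0.0111), gave 0 calls, 1976 genes at an unadjusted p under 0.05 and a log2 fold change of 1.03 for Acss2. Acss2 was above 0 under every alternative run (0.09 to 1.378).

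Of 140 named genes, the following changed sign. Without the 3 libraries that stand apart the log2 fold changes were -0.053 for Prnp, -0.057 for Ifngr2, 0.75 for Trbc2, 0.068 for Aldh1l1, 0.006 for Steap4, 0.034 for Myrf, 0.099 for Mag, -0.164 for Hbb-bt, -0.022 for C1ql2, -0.09 for Bok, 0.592 for Slc17a6, 0.065 for Rgs16, 0.781 for Tcf7l2, 0.408 for Rspo1, 0.048 for Trib1, 0.15 for Srebf1 and -0.455 for Cst7. With the choroid plexus covariate they were -0.083 for Prnp, -0.02 for Cd59a, -0.235 for Six3 and -0.002 for Pdia6. With the short-minus-long covariate they were -0.382 for Hbb-bt, 0.036 for Pclo, 0.072 for Grin1, 0.103 for Nlgn2, 0.244 for Grin2b, 0.053 for Gsk3b, -0.133 for P2ry12, -0.863 for Cst7 and 0.013 for Arc. Leaving out 1 mouse moved Prnp between -0.038 and 0.058, Trbc2 between -1.543 and 0.292, Hba-a1 between -0.474 and 0.057, Hba-a2 between -0.5 and 0.164, Tcf7l2 between -1.807 and 0.441, Rspo1 between -1.608 and 0.114, Grin2b between -0.289 and 0.008, P2ry12 between -0.067 and 0.255, Cst7 between -0.716 and 0.445, and Arc between -0.231 and 0.14. None of these genes had passed the threshold, and the cause was not tested. Of the 35 list medians, 11 values under an alternative moved by more than 1 SD between mice.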

Other observations

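Beyond the lists, 2 further families were looked at after the length gradient had been seen, so their values are a description. Of 74 tested mitochondrial ribosomal protein genes, 70 were higher with upACSS2 at 6 months, 19 at an unadjusted p under 0.05 and 6 without overlap, with a median log2 fold change of 0.15 (-0.071 at 1 month) and a median exonic length of 2541.5 bases. Of 66 tested nuclear-encoded subunits of respiratory complexes and ATP synthase, 62 were higher, 46 at an unadjusted p under 0.05 and 20 without overlap, with a median of 0.33 (-0.085 at 1 month) and a median length of 1327 bases. By DESeq2, 1 of the former and 2 of the latter rose. Over all genes, 7.67% were higher at an unadjusted p under 0.05, 1.31% were higher without overlap and 0.57% rose by DESeq2. The mean level of the respiratory family was 5.81 to 6.38 log2 CPM in the upACSS2 mice and 5.61 to 5.76 log2 CPM in the vector mice, and the 2 ranges did not overlap.

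Across 15598 genes with a length, Spearman's rho between exonic length and the 6-month log2 fold change was -0.322. The genes share the same 10 libraries and are not independent replicates.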
